A study of Cucumis melo with 6 samples.

Results

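The 200 gene models with the most even expression across 6 melon leaf libraries were described. Expression was taken as CPM, the counted reads of a gene per 1e6 counted reads of its library. Genes entered if they reached at least 30 CPM in each library and were not among the 150 highest by mean CPM in wild type, which left 5324 of 28299 gene models, called the level class here. The 200 genes with the smallest ratio of highest to lowest CPM over the 6 libraries were taken. The values of all libraries chose these genes, so their evenness and any small difference between genotypes are descriptions and were not tested as findings.

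The mutant libraries, 3 in number, came from lhp1ab double mutants of Cucumis melo in the Charentais-type line CharMONO, an inbred melon. The wild type (WT) was CharMONO itself, also with 3 libraries. The mutations were induced with EMS, a chemical mutagen. Per the labels they are G1970A in Cmlhp1a and C1930T in Cmlhp1b, with positions counted along the genomic sequence from the ATG. Both genotypes grew under glass in long days (16 h at 27 °C, then a night of 8 h at 21 °C), and each library was made from polyadenylated RNA of 1 g of leaves with a directional kit. The libraries are labelled biological replicates, but plant age and whether a library is 1 plant or a pool are not stated. All p-values therefore refer to the variation among these 6 libraries.

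LHP1 is a plant chromodomain protein that binds trimethylated lysine 27 of histone H3, the mark that Polycomb proteins place on silent genes. Genes of steady expression are used in plant work as internal references, against which the amount of other transcripts is measured. A CPM value is itself a share of the library, so a gene can look even on one scale and uneven on another. The files give identifiers, exon coordinates and counts, on release 4.0 of the melon genome, and pair no identifier with a gene name. Product names, the targeted genes and leaf marker genes were therefore not analysed here, and the members are described by level, structure and position.

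Totals ranged from 15335390 to 17647188 counts in lhp1ab and from 20551374 to 22366054 in WT. The 3 lhp1ab libraries did not resemble one another equally: lhp1ab replicate 1 differed from the others in how CPM ran with exon length. Among the 423 genes of the level class with over 4000 nucleotides (nt) of exon, the median log2 deviation from a gene's mean over the 6 libraries was -0.36 in lhp1ab replicate 1. It was 0.12 and 0.16 in lhp1ab replicates 2 and 3, and 0.03, 0.12 and -0.07 in WT replicates 1 to 3. The choice of genes, their exon length and the numbers of calls are therefore also given without this library. Shares by exon number, by level and by order or overlap of neighbours are given with all 6 libraries only.

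The most even gene of all was also the most abundant of the 200. maker-Chr11-exonerate_est2genome-gene-145.0 (8 exons, chromosome 11, bases 14508800 to 14514142, plus strand) had 508, 504 and 502 CPM in lhp1ab and 497, 505 and 506 CPM in WT. The means were 505 ± 3.08 CPM in lhp1ab and 502 ± 5.0 CPM in WT (SD, n = 3 each). Its highest library exceeded its lowest by a ratio of 1.02, and the 2 genotypes overlapped.

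The next 2 genes varied a little more. maker-Chr9-exonerate_est2genome-gene-223.8 (11 exons, chromosome 9, bases 22378561 to 22383098, plus strand) had 51.1, 51.3 and 50.8 CPM in lhp1ab and 52.8, 51.2 and 52.4 CPM in WT. maker-Chr11-exonerate_est2genome-gene-16.23 (2 exons, chromosome 11, bases 1677240 to 1678953, plus strand) had 48.8, 47.9 and 49.5 CPM in lhp1ab and 48.5, 48.1 and 49.9 CPM in WT. Both had a ratio of 1.04, and neither separated the genotypes.

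Of the next genes in order, 3 differ in structure, with 2 or 15 exons. On chromosome 7, the 2-exon gene maker-Chr7-exonerate_est2genome-gene-3.9 (315118 to 317539, minus strand) had 67.4, 65.2 and 68.2 CPM in lhp1ab and 65.6, 67.4 and 65.7 CPM in WT. On chromosome 12, the 15-exon gene maker-Chr12-exonerate_est2genome-gene-21.3 (2121728 to 2129102, plus strand) had 212, 206 and 204 CPM in lhp1ab and 203, 209 and 202 CPM in WT. On chromosome 4, the 15-exon gene maker-Chr4-exonerate_est2genome-gene-3.0 (298268 to 306685, plus strand) had 153, 156 and 161 CPM in lhp1ab and 155, 159 and 158 CPM in WT. No library was the high or the low one in all of these, and lhp1ab replicate 1 took no constant place among them.

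The remaining 6 of the 12 most even genes had mean levels between 32.0 and 92.4 CPM and from 2 to 11 exons. They were maker-Chr7-exonerate_est2genome-gene-234.8, maker-Chr9-exonerate_est2genome-gene-11.2, maker-Chr5-exonerate_est2genome-gene-266.10, maker-Chr5-exonerate_est2genome-gene-104.22, maker-Chr6-exonerate_est2genome-gene-25.1 and maker-Chr6-exonerate_est2genome-gene-275.8. In 1 of them, maker-Chr9-exonerate_est2genome-gene-11.2, all lhp1ab libraries lay above all WT libraries, at 63.1, 63.3 and 62.7 CPM in lhp1ab and 62.4, 60.2 and 60.6 CPM in WT. It was not called in the test of genotypes described below.

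**Figure D1:**
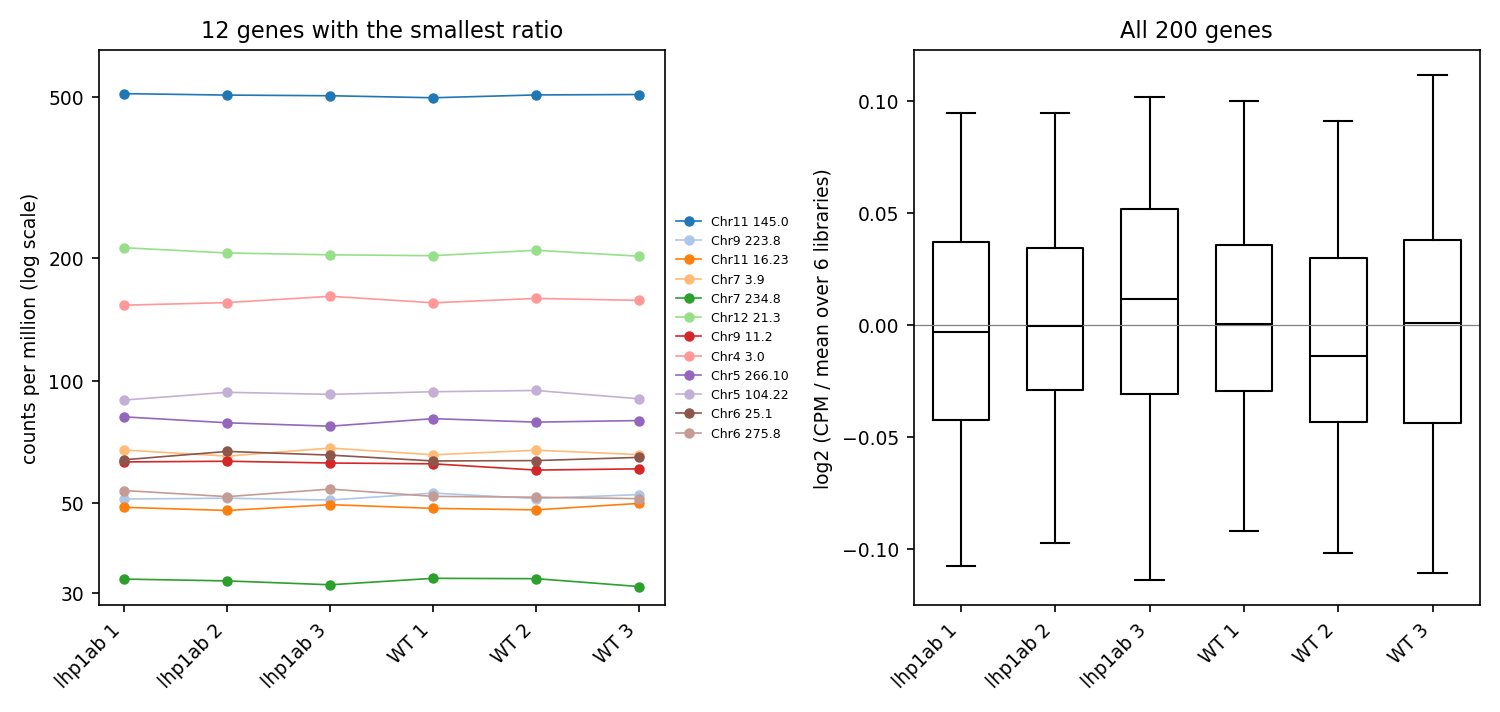
Left, CPM (log axis) of the 12 genes with the smallest ratio in each library, named by chromosome and the last part of the identifier; right, log2 of CPM over the gene's mean for all 200 genes, with boxes from the lower to the upper quartile and whiskers to the extremes. The 12 lines run flat at levels between 32.0 and 504 CPM, and in all 6 libraries the boxes on the right cross 0.

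Across the 200 genes the ratio had a median of 1.1005 and a highest value of 1.1218. In the other 5124 genes of the level class the median ratio was 1.57, and the highest was 66.7. Within a genotype, the median ratio over the 3 libraries was 1.05 in lhp1ab and 1.05 in WT for the even genes, against 1.12 in lhp1ab and 1.08 in WT for the others. The ratio of genotype means, larger over smaller, had a median of 1.03 in the even genes and 1.38 in the others. The even genes and the rest of their class thus lay further apart in the ratio between genotypes than in the ratios within them.

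No natural edge in the ratio separates the last even genes from the next ones. The last 4 inside, maker-Chr11-exonerate_est2genome-gene-243.0, maker-Chr11-exonerate_est2genome-gene-283.1, maker-Chr2-exonerate_est2genome-gene-111.41 and maker-Chr10-exonerate_est2genome-gene-38.28, had ratios between 1.1210 and 1.1218. The first 4 outside, maker-Chr2-exonerate_est2genome-gene-55.10, maker-Chr12-exonerate_est2genome-gene-244.15, maker-Chr6-exonerate_est2genome-gene-197.0 and maker-Chr11-exonerate_est2genome-gene-288.10, had ratios between 1.1219 and 1.1227.

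The remaining spread was set beside the size that counting reads gives. The members had between 482 and 11313 counts in a library, with a median of 1260. The counting error alone is 4.55% of the lowest of these counts, 2.82% of the median and 0.940% of the highest. A chi-square of the 6 counts against equal shares of the library totals, divided by its 5 degrees of freedom, is near 1 where counting error alone acts. It had a median of 1.4998 in the even genes, with 44 of 200 below 1, an upper quartile of 2.80, a 90th percentile of 4.10 and a highest value of 13.8. It had a median of 50.9 in the other genes of the class, with 1 of 5124 below 1. This measure was used by the rule in another form and stands as a description. Reads carry no molecular identifiers, so it covers counting error only.

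The even genes had a median level of 65.8 CPM, against 76.1 CPM in the other genes of the class. Per kilobase (kb) of exon, the medians were 39.2 and 38.5 CPM. The highest members after the chromosome 11 gene were maker-Chr6-exonerate_est2genome-gene-7.0 at a mean of 488 CPM, maker-Chr1-exonerate_est2genome-gene-309.1 at 287 CPM and maker-Chr1-exonerate_est2genome-gene-152.38 at 285 CPM. The lowest were maker-Chr6-exonerate_est2genome-gene-16.6 at 31.9 CPM, maker-Chr7-exonerate_est2genome-gene-234.8 at 32.0 CPM, maker-Chr7-exonerate_est2genome-gene-8.2 at 32.2 CPM and maker-Chr8-exonerate_est2genome-gene-50.9 at 32.5 CPM. The share of even genes was 10.6% at 30 to 40 CPM (41 of 388), where the limit of 30 CPM in each library itself keeps the ratio small. From 40 to 200 CPM it lay between 2.92% and 4.38%, and above 200 CPM it was 1.75% (10 of 573).

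Whether the even genes count as changed between genotypes depended on the scaling. The rule uses library totals, under which the median log2 fold change (lhp1ab over WT) of the 200 genes was 0.00 and that of the whole level class -0.09. TMM normalization, which sets libraries equal on a trimmed mean of gene ratios, gave factors of 0.960, 0.992 and 0.996 to the lhp1ab libraries and of 1.02 to each WT library. It moved the median of the even genes to 0.05, with a range from -0.10 to 0.18, and that of the class to -0.04. With RLE factors, which use the median ratio, the even genes had a median of 0.08 and the class one of -0.01.

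With TMM, 13 of the 200 genes were called, all higher in lhp1ab (quasi-likelihood test of edgeR, threshold 0.05 on the p adjusted over all genes by Benjamini-Hochberg). Over all 17988 genes tested 75.5% were called, 36.9% higher and 38.5% lower in lhp1ab. In the level class 77.7% were called, 36.6% higher and 41.1% lower. The rule used this contrast, so nothing is read from the low count. Against a 1.5-fold change 0 of the 200 passed (edgeR's glmTreat, also 0 at an unadjusted p under 0.05), against 40.1% of all genes tested and 29.6% of the level class. The number called by other means was 26 with RLE factors, 7 with DESeq2, 15 with limma-voom, and 2 with library totals alone, both of those lower in lhp1ab. It was 0 without WT replicate 1, 2 without WT replicate 2 and 6 without WT replicate 3. Without lhp1ab replicate 1 it was 20, without lhp1ab replicate 2 it was 12, and without lhp1ab replicate 3 it was 5.

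In each of the 13 called genes all lhp1ab libraries lay above all WT libraries in CPM, by a small step. maker-Chr11-exonerate_est2genome-gene-243.0 (20 exons, chromosome 11, bases 24293435 to 24310356, plus strand), which overlaps a gene on the opposite strand, had 70.0, 72.9 and 71.5 CPM in lhp1ab and 65.0, 65.1 and 66.5 CPM in WT. Its log2 fold change was 0.18 (SE 0.056, edgeR adjusted p = 0.015). The rule had chosen this gene by the same values, which bounds both its spread and its difference between genotypes. The SE and p are therefore descriptions, and no finding is drawn from them. The single-exon gene maker-Chr10-exonerate_est2genome-gene-51.4 (chromosome 10, bases 5105118 to 5106803, minus strand) had 105, 103 and 107 CPM in lhp1ab and 99.4, 96.3 and 96.2 CPM in WT. Also among the 4 largest were maker-Chr5-exonerate_est2genome-gene-15.16, which overlaps another gene model on its own strand, and maker-Chr9-exonerate_est2genome-gene-237.16, at log2 fold changes of 0.17 and 0.16. In all, 45 of the 200 genes separated the genotypes in CPM without overlap, 27 of them higher and 18 lower in lhp1ab, where 77.5% of all genes tested did so.

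The list itself also moved with the scaling. When the rule was applied again, 125 of the 200 were chosen with totals that leave out the 20 most abundant genes, 117 with upper-quartile factors, which set the libraries equal on the upper quartile of gene counts, 115 with TMM factors and 69 with RLE factors. All 69 of the last group were chosen under each of these 4 scalings, and 56 of the 200 were chosen under none of them. The 69 genes had mean levels from 32.2 to 226 CPM, and 50 of them were chosen again when lhp1ab replicate 1 was left out. Among the 12 genes with the smallest ratio, 5 belonged to the 69. The chromosome 11 gene at the head of the list was chosen under 3 of the 4 scalings. Of the 13 genes called with TMM, 2 were chosen under any of the 4.

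**Figure D2:**
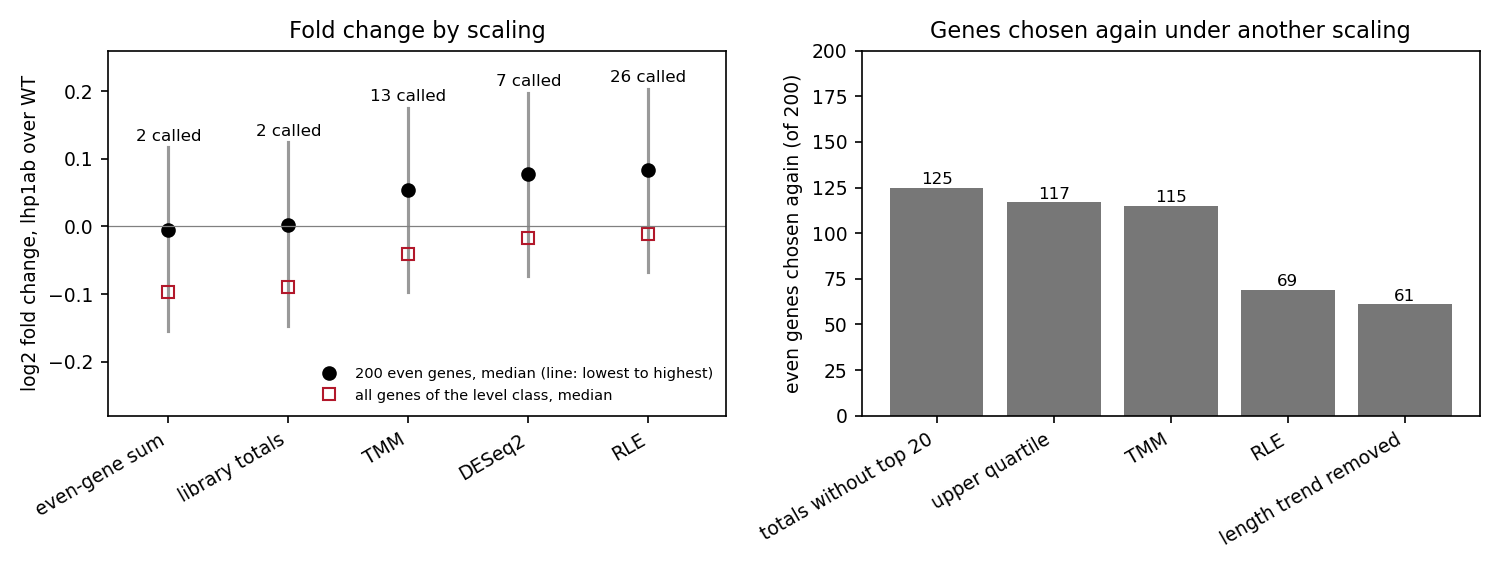
Left, log2 fold change (lhp1ab over WT) under 5 ways of scaling the libraries, with the median of the 200 even genes (dots), their range (lines), the median of the level class (squares) and the number of even genes called; right, the number of the 200 genes chosen again when the rule is applied under another scaling. The medians of the even genes lie between -0.0045 and 0.08, and the numbers chosen again run from 125 to 61.

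Exon length set the even genes apart from their class in range more than in the middle. Exons of a gene model summed to a median of 1787 nt in the even genes, with 1197 nt and 2469 nt as the 10th and 90th percentiles. In the other genes of the class the median was 1978 nt, and these percentiles were 1037 nt and 3773 nt. The share of even genes was 7.46% among genes of 1501 to 2000 nt (90 of 1207) and 5.06% at 2001 to 2500 nt (49 of 968). It was 3.41% between 1000 and 1500 nt (37 of 1086), 2.55% at 2501 to 3000 nt (15 of 588) and 1.52% up to 1000 nt (7 of 461).

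Above 3000 nt only 2 of the 200 genes were found (1.00%), against 1012 of the 5124 others (19.8%). Both lie on chromosome 12 on the plus strand, and both overlap a gene on the opposite strand. maker-Chr12-exonerate_est2genome-gene-143.5, with 4823 nt in 3 exons from 14316880 to 14322465, had 154, 167 and 167 CPM in lhp1ab and 155, 155 and 154 CPM in WT. maker-Chr12-exonerate_est2genome-gene-251.12, with 3048 nt in 7 exons from 25178450 to 25182393, had 87.8, 85.3 and 89.9 CPM in lhp1ab and 83.6, 81.8 and 80.4 CPM in WT. The second of these was called higher in lhp1ab with TMM. Both were named for their length after their values were seen.

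The scarcity of long genes moved with lhp1ab replicate 1. Median log2 deviations in this library fell along the classes of exon length, at -0.03 for 1501 to 2000 nt, -0.15 for 2501 to 3000 nt, -0.24 for 3001 to 4000 nt and -0.36 above that. In the same classes lhp1ab replicate 3 had -0.02, 0.04, 0.07 and 0.16, and WT replicate 2 had 0.02, 0.06, 0.11 and 0.12. WT replicate 3 also fell along these classes, by smaller steps, at 0.04, 0.01, -0.01 and -0.07. In the shortest class all 3 lhp1ab libraries lay below all WT libraries. Up to 1000 nt the medians were -0.08, -0.23 and -0.25 in lhp1ab replicates 1 to 3 and 0.18, 0.09 and 0.28 in WT replicates 1 to 3. At 1501 to 2500 nt, where 139 of the 200 genes lie, the medians of all 6 libraries stayed between -0.07 and 0.04.

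When the 200 genes were chosen without lhp1ab replicate 1, genes over 3000 nt made up 15.5% (31 of 200), against 20.2% of the other genes that met the limits. The median exon length was then 2017 nt. Leaving out any other library gave between 1% and 4%. When the median of each class of exon length was made equal in all libraries, which also takes away any real difference between genotypes that runs with length, the share was 22.0% and 61 of the 200 genes were chosen again.

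**Figure D3:**
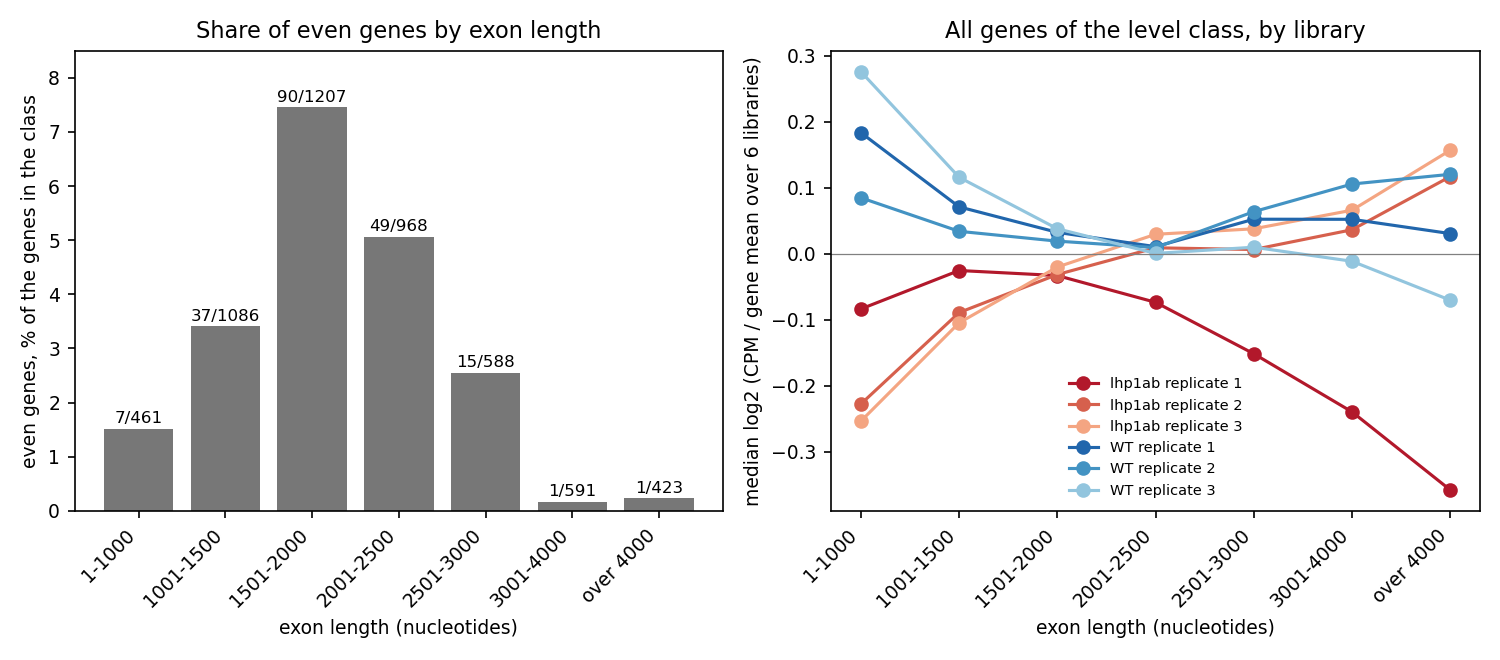
Left, the percentage of genes in each class of exon length that belong to the 200 even genes, with the numbers above the bars; right, the median log2 of CPM over the gene's mean in each library, over all 5324 genes of the level class. The bar of 1501 to 2000 nt is the highest at 7.46%, and on the right lhp1ab replicate 1 falls to -0.36 in the longest class.

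The number of exons set the even genes apart less than length did. The median was 7 exons in the even genes and in the other genes of the class, against 5 in all genes tested. Single-exon genes were 10 of the 200 (5%) and 297 of the 5124 others (5.80%), against 15.5% of all genes tested. Genes of 20 or more exons were 2 of the 200 and 288 of the others (5.62%). At 15 or more exons 9 of 689 genes were even genes. In that class the median log2 deviation was -0.28 in lhp1ab replicate 1 and between -0.002 and 0.13 in the other libraries. Among genes between 1000 and 2500 nt, the share of even genes lay between 4.16% and 7.10% in 6 classes of exon number. Its highest value was at 10 to 14 exons, with 45 of 634 genes, and its lowest at 4 to 6 exons, with 39 of 938.

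Members at the ends of this scale show how small the steps are. The gene maker-Chr10-exonerate_est2genome-gene-38.28 (21 exons, chromosome 10, bases 3828777 to 3839987, minus strand) had 32.1, 35.4 and 34.2 CPM in lhp1ab and 34.3, 36.0 and 34.9 CPM in WT. maker-Chr12-exonerate_est2genome-gene-207.12 (a single exon of 2944 nt, chromosome 12, bases 20726204 to 20729147, minus strand) had 34.8, 37.9 and 37.1 CPM in lhp1ab and 35.4, 35.4 and 35.3 CPM in WT. In both, lhp1ab replicate 1 was the lowest of the 6 libraries. The single-exon genes maker-Chr1-exonerate_est2genome-gene-152.38 and maker-Chr9-exonerate_est2genome-gene-191.17 had lhp1ab replicate 1 above both other lhp1ab libraries, at 299 CPM and 94.8 CPM.

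Intron length per gene had a median of 2470 nt in the even genes and 2371 nt in the others. The widest even gene, maker-Chr3-exonerate_est2genome-gene-164.7, spans 47461 bases on chromosome 3 from 16428413 to 16475873, with 2019 nt of exon in 14 exons, and was named for its span after its values were seen.

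Genes even over 5 libraries deviated less than the other genes in the sixth, which the choice had not used. Genes were chosen 6 times, each time with a library left out, and their CPM there was set against the mean of the other 5. The median absolute log2 deviation was 0.118 in lhp1ab replicate 1, 0.044 in lhp1ab replicate 2 and 0.075 in lhp1ab replicate 3. In WT replicates 1 to 3 it was 0.044, 0.059 and 0.073. For the other genes that met the limits it lay between 0.271 and 0.332. Each choice still held libraries of both genotypes, while the other genes kept their differences between genotypes. The contrast with them was therefore largely set by the choice. Inside the range of the other 5 libraries lay 22.0% to 66.5% of the chosen genes, against 52.7% to 79.9% of the others. That range was narrow in the chosen genes by the choice itself, so this contrast too was largely set by it. Within 1.1-fold of the mean were 82.0% to 96.5% of the chosen genes in 5 of the libraries and 57.0% in lhp1ab replicate 1.

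In lhp1ab replicate 1 the deviation of the genes chosen without it followed exon length. It had a median of 0.06 in the 43 genes up to 1500 nt, of -0.04 in the 92 genes of 1501 to 2500 nt and of -0.25 in the 65 longer ones. In the other libraries the corresponding medians stayed between -0.04 and 0.08. Of the genes chosen without a library, 102 belonged to the 200 when lhp1ab replicate 1 was left out, and 141 to 181 when another one was.

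**Figure D4:**
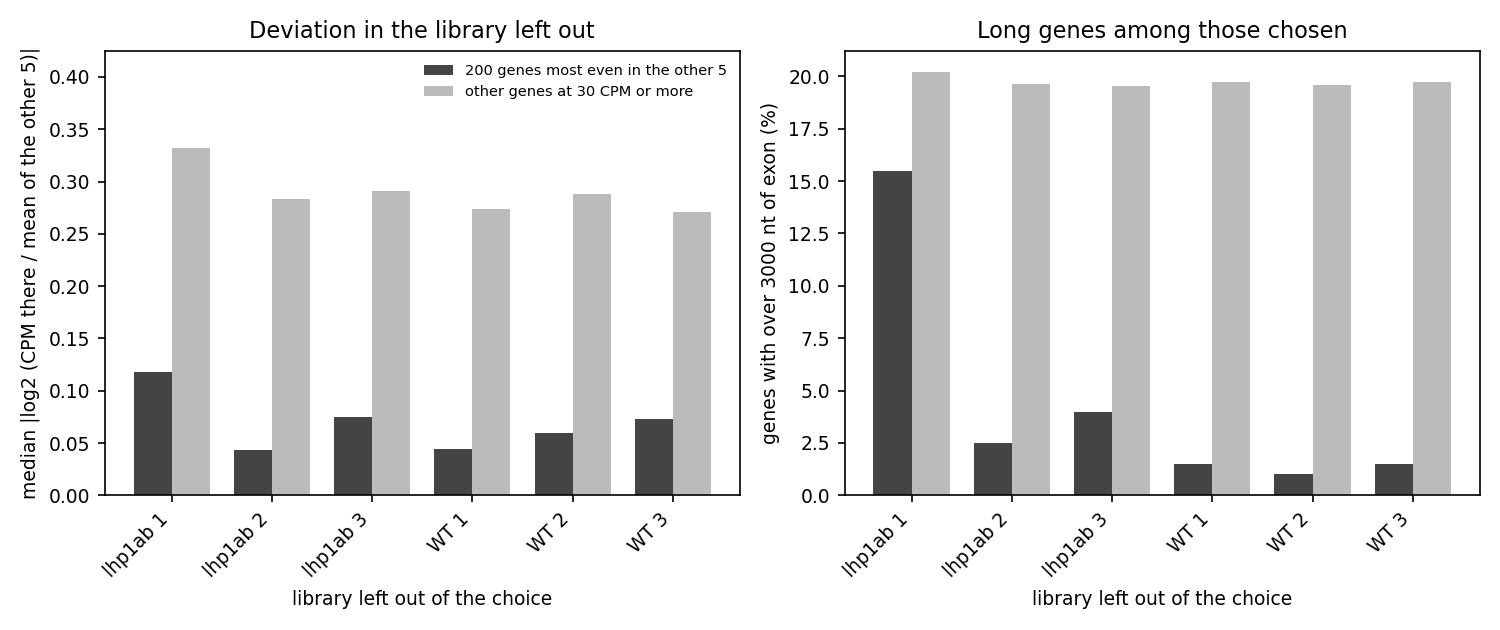
For each library left out of the choice (x axis), left, the median absolute log2 of its CPM over the mean of the other 5 libraries, and right, the percentage of genes with over 3000 nt of exon; dark bars are the 200 genes most even in the other 5 libraries and light bars the other genes that met the limits. Dark bars on the left lie between 0.044 and 0.118, and on the right only that of lhp1ab replicate 1 exceeds 4%.

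The genes most even within 1 genotype were for the most part not those most even across all 6 libraries. Of the 200 genes of the level class with the smallest ratio over the 3 lhp1ab libraries, 20 were among the even genes (10.0%), and of the 200 with the smallest ratio over the 3 WT libraries, 15 were (7.5%). In the whole class 200 of 5324 genes are even genes, a smaller share than either. A small ratio over all 6 libraries requires a small ratio within each genotype. The rule itself therefore raises both shares above that of the class, and nothing is read from this. Most of these within-genotype lists were called between genotypes, with 165 of 200 for lhp1ab and 167 of 200 for WT, where 77.7% of the level class was called (edgeR, adjusted p threshold 0.05). The lists were chosen for a small spread in libraries that the test also used. That choice can itself raise the share called, so nothing is read from these counts either. Over all 6 libraries the median ratio was 1.42 in the lhp1ab list and 1.46 in the WT list.

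The even genes were spread over all 12 chromosomes much like their class. Chromosome 6 held the most, with 26 of the 200 (13%) and 10.7% of the class, and chromosome 10 the fewest, with 10 (5%) and 5.43%. On the plus strand were 96 of the 200 genes (48.0%), against 49.7% of the others. Within 10% of the annotated span of a chromosome from its nearer end lay 42% of the even genes and 41.6% of the others, against 32.4% of all annotated genes. More than 40% of the span away from both ends lay 27 even genes (13.5%), against 7.85% of the others and 12.7% of all genes. A median of 23 genes lay within 100 kb to either side of an even gene, against 22 for the others and 19 for all genes.

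In 3 places 2 even genes stood side by side. On chromosome 4, maker-Chr4-exonerate_est2genome-gene-316.13 (31617184 to 31620951) and maker-Chr4-exonerate_est2genome-gene-316.14 (31617200 to 31620910) lie on top of each other on the minus strand. The first had 81.7, 81.2 and 75.7 CPM in lhp1ab and 76.0, 79.1 and 82.0 CPM in WT, and the second had 81.6, 81.2 and 75.6 CPM in lhp1ab and 76.0, 79.1 and 82.0 CPM in WT. Reads that overlap several genes were counted for each, so these models share their reads and are 1 measurement. In all, 5 of the 200 genes overlap another gene on their own strand.

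On chromosome 6, maker-Chr6-exonerate_est2genome-gene-25.1 (2497446 to 2502435, plus strand) and the 18-exon gene maker-Chr6-exonerate_est2genome-gene-25.8 (2503655 to 2513368, minus strand) face each other tail to tail across 1219 bases. The first had 63.8, 66.9 and 65.5 CPM in lhp1ab and 63.4, 63.5 and 64.7 CPM in WT, and the second had 108, 112 and 113 CPM in lhp1ab and 104, 109 and 108 CPM in WT. On chromosome 9, maker-Chr9-exonerate_est2genome-gene-76.26 (7607178 to 7625643) and maker-Chr9-exonerate_est2genome-gene-76.27 (7633397 to 7634727) follow each other on the minus strand. The genotypes did not overlap in the first, at 73.3, 74.8 and 78.0 CPM in lhp1ab and 72.1, 72.0 and 70.9 CPM in WT. Nor did they overlap in the second, which was lower in lhp1ab, at 67.5, 64.3 and 62.5 CPM in lhp1ab and 69.9, 68.6 and 69.9 CPM in WT. Neither gene of this pair was called with TMM.

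The share of called genes next to the even genes was near that of all genes. Each of the 200 genes has an annotated neighbour on either side, and 309 of these 400 positions held a gene expressed enough to be tested. Of these, 239 were called (77.3%, exact 95% binomial interval 72.3% to 81.9%, which covers the number of genes only), against 76.4% for neighbours of the other genes of the class and 75.5% of all genes tested. Higher in lhp1ab were 121 (39.2%) and lower 118 (38.2%), against 36.9% and 38.5% of all genes tested. Called with at least a 2-fold change were 102 (33.0%), against 31.1%. The median absolute log2 fold change was 0.65 in these neighbours, 0.57 in neighbours of the others and 0.60 over all genes tested. Leaving out neighbours that are even genes themselves, 239 of 303 were called (78.9%), against 77.2% for the other genes of the class. Without lhp1ab replicate 1, 80.1% of all tested neighbours were called, against 76.0% of all genes then tested.

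Of the 200 even genes, 78 had a called neighbour on both sides, 83 on 1 side and 39 on none. These counts take untested neighbours along with those not called. Among the 39, neither neighbour was tested in 16 and only 1 was tested in 18. In 5 both were tested and not called. Among the 83, the other neighbour was untested in 26 with a higher and 15 with a lower one. No such counts are given for the other genes of the class. In 35 genes 1 neighbour was higher and the other lower in lhp1ab, in 24 both were lower and in 19 both were higher. Neighbours in head-to-head order were called in 71 of 86 cases (82.6%, exact 95% interval 72.9% to 89.9%), against 74.6% for the other genes of the class. Neighbours in tail-to-tail order were called in 53 of 70 (75.7%) and those in the same direction in 115 of 153 (75.2%). For these orders the other genes of the class had 76.9% and 77.1%. The head-to-head interval holds the value of the other genes, and the difference was not tested.

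Neighbours that overlap an even gene were few and had a lower share of calls. They were called in 7 of 20 cases (35%, exact 95% interval 15.4% to 59.2%), against 351 of 562 (62.5%) for overlapping neighbours of the other genes. On the same strand, where reads are shared with the even gene and the rule therefore acts on the neighbour too, it was 2 of 5. Among these 5 are the 2 even genes that lie on top of each other on chromosome 4. On the opposite strand, counted apart under the reverse-stranded setting, 5 of 15 were called (33.3%, interval 11.8% to 61.6%), against 283 of 455 (62.2%). The difference was not tested, nor was whether the rule acts on these neighbours too. Neighbours without overlap were called in 232 of 289 cases (80.3%, interval 75.2% to 84.7%), against 77.5% for the others. With a gap of up to 1 kb it was 48 of 58 (82.8%), with 1 to 5 kb 98 of 124 (79.0%) and beyond that 86 of 107 (80.4%).

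Among called neighbours whose larger genotype mean reached 5 CPM, the 6 with the largest changes are named. These went in both directions, and some neighbours below that level had larger fitted changes. maker-Chr3-exonerate_est2genome-gene-279.21 (9 exons, chromosome 3, 27961732 to 27965831, minus strand) had 13.9, 16.5 and 16.3 CPM in lhp1ab and 0.73, 0.53 and 0.72 CPM in WT, a log2 fold change of 4.60 (SE 0.15, edgeR adjusted p = 7.73e-10). The even gene 8413 bases from it, maker-Chr3-exonerate_est2genome-gene-279.22 (27974245 to 27979508, minus strand), had 70.4, 72.1 and 72.3 CPM in lhp1ab and 73.9, 70.1 and 78.4 CPM in WT. The neighbour was higher in all 3 lhp1ab libraries, while the genotypes overlapped in the even gene.

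On chromosome 5, a strongly expressed neighbour fell. The single-exon gene maker-Chr5-exonerate_est2genome-gene-9.20 (910462 to 911904, plus strand) had 51.6, 45.6 and 43.5 CPM in lhp1ab and 633, 603 and 642 CPM in WT, a log2 fold change of -3.69 with an SE of 0.085 (adjusted p = 7.74e-11, edgeR). It overlaps a gene on the opposite strand. Next to it, 13779 bases away and head to head, the even gene maker-Chr5-exonerate_est2genome-gene-9.23 (893859 to 896682, minus strand) had 82.1, 86.6 and 86.3 CPM in lhp1ab and 89.2, 91.2 and 83.6 CPM in WT.

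A rise of similar size lay 1095 bases from maker-Chr4-exonerate_est2genome-gene-316.14 of the overlapping pair on chromosome 4, also head to head. The 3-exon gene maker-Chr4-exonerate_est2genome-gene-316.2 (31622006 to 31623713, plus strand) had 40.8, 37.6 and 42.4 CPM in lhp1ab and 4.23, 2.60 and 2.91 CPM in WT (log2 fold change 3.68, SE 0.13, edgeR adjusted p = 1.42e-09). The other 3 of these 6 neighbours were maker-Chr3-exonerate_est2genome-gene-254.18 at 3.86, maker-Chr5-exonerate_est2genome-gene-69.4 at 3.65 and maker-Chr3-exonerate_est2genome-gene-284.27 at -3.61 on the log2 scale. The second of these had 186, 196 and 188 CPM in lhp1ab and 14.7, 16.7 and 15.6 CPM in WT. The even gene next to it, maker-Chr5-exonerate_est2genome-gene-69.2, lies 44337 bases away. It had 196, 191 and 191 CPM in lhp1ab and 204, 198 and 205 CPM in WT, so all lhp1ab libraries lay below all WT libraries. This even gene was not called with TMM.

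**Figure D5:**
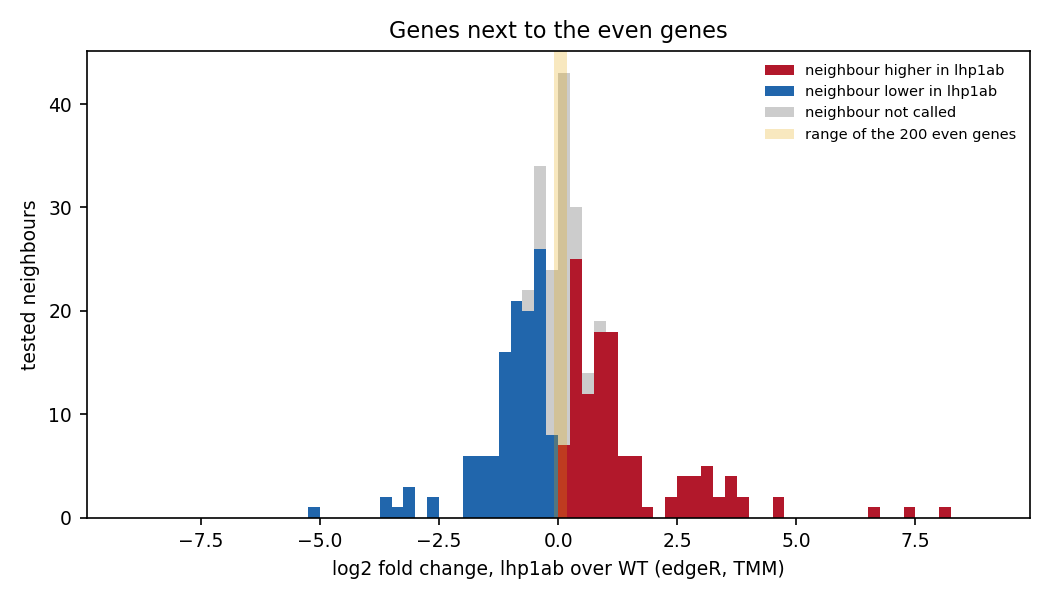
Log2 fold change (lhp1ab over WT, edgeR with TMM) of the 309 tested genes next to the 200 even genes, stacked by call, with the range of the even genes themselves shaded. The 121 higher and 118 lower neighbours reach far beyond the shaded band on both sides, which runs between -0.10 and 0.18.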

How the data were processed

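Leaf RNA-seq libraries of lhp1ab and WT melon (n = 3 each) were used. The authors deposited raw counts of reads per gene. Per the file headers these came from featureCounts 1.6.4 over exons, with reverse strand (2), mapping quality 30 or more, and multi-overlapping reads counted. Multi-mapping reads were allowed too, but only those that met the quality limit could be counted. Trimmomatic 0.38 and STAR are listed in the submitters' processing notes. A count of 0 allows up to 3 counts.

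Genotypes were compared with edgeR 4.0.16 (R 4.3.3; quasi-likelihood F-test, TMM, default filter on low counts, no covariates), with Benjamini-Hochberg adjustment over all genes tested. The SE of a log2 fold change was derived from its F statistic. DESeq2 1.42.0, limma-voom (limma 3.58.1), other scalings, a replicate block and left-out libraries were alternatives. The fit and the rule were tested on simulated data. Members, lists and the rule for named genes (extremes of ratio, level and exon number, adjacent pairs, called members, and most changed neighbours whose larger genotype mean reached 5 CPM) were chosen with earlier results of these data known. No test was run over the members as a list.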

Additional observations from a re-analysis of the deposited data

How the results depend on the processing

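The make-up of the list moved with the processing. Of the 200 genes, 125 were chosen again with totals without the 20 most abundant genes, 117 with upper-quartile, 115 with TMM and 69 with RLE factors, 130 with a limit of 50 CPM, 100 when 100 were taken, 61 with the length trend removed, and 102 to 181 with a library left out. Choosing within lhp1ab alone gave 20 and within WT alone 15. The share over 3000 nt (1.00%) became 5.5% with RLE, 4.5% with upper-quartile factors, 4% at 50 CPM, 22.0% with the length trend removed, and 1.00% to 15.5% with a library left out. Even genes called numbered 26 with RLE, 7 with DESeq2, 5 without the low-count filter, 2 with library totals or with the sum of the even genes as scale, 0 against a 1.5-fold change (edgeR's glmTreat, 0 at an unadjusted p under 0.05), and 0 to 20 with a library left out. The 0 came without WT replicate 1, where edgeR gave 2 at an unadjusted p under 0.05. The cause was not tested. Called neighbours (77.3%) became 43.7% against a 1.5-fold change, 68.7% with DESeq2 and 69.2% without the filter. For neighbours of the other genes of the class, 76.4% became 38.3%, 65.3% and 68.2% in the same settings. The neighbours tested numbered 342 with DESeq2 and 364 without the filter, against 309 in the main fit. Why these shares are lower was not tested. Over all genes, 7222 were called against a 1.5-fold change and 13579 against none. Apart from the replicate block, the other alternatives kept these values within 1.5 times for counts, within the exact 95% interval for shares, or within 1 SD for the library left out. Removing the length trend, the choices within 1 genotype and both alternatives for the library left out were added after seeing the data. Replicate numbers alone link the genotypes: correlations of deviations were 0.0035 for number 1, 0.093 for number 2 and -0.12 for number 3, and some libraries correlated best with another number. With the replicate block, 1 even gene and 13297 genes were called. Counting error was largest near the limit of 30 CPM, at 4.55% of the lowest count of a member. How far depth limits the ratio there was not tested.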
